A study of Saccharomyces cerevisiae with 14 samples.

Results

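The genes described here are 10 yeast genes of thiamine and vitamin B6 synthesis: THI4, THI5, THI11, THI12, THI13, THI20, SNO2, SNO3, SNZ2 and SNZ3. They were found by symbol in the array's annotation, and all 10 were among the 5548 named genes and had a value on each of the 14 arrays. The set was picked from measured values, because THI11 and SNO3 lay lower in each of 5 strains than in the control strain FHT-WT1. Differences from FHT-WT1 are therefore given for these genes as a description, without a test.

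Thiamine (vitamin B1) is made in yeast from a pyrimidine and a thiazole part that are joined and then converted to thiamine diphosphate, the cofactor of enzymes such as pyruvate decarboxylase and transketolase. The pyrimidine part comes from the THI5, THI11, THI12 and THI13 enzymes, which are encoded by near-identical gene copies, and it draws on a form of vitamin B6. THI4 makes the thiazole part, and THI20 is a kinase that acts on the pyrimidine part before the parts are joined. SNZ2 and SNZ3 encode the synthase subunit, and SNO2 and SNO3 the glutaminase subunit, of an enzyme that makes pyridoxal phosphate, the active form of vitamin B6. Yeast thiamine genes are known to be repressed by thiamine in the medium and to need the regulators THI2, THI3 and PDC2.

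The study measured polyA RNA of Saccharomyces cerevisiae on PCR-product arrays of the genome, with a strain and the reference strain yjdi363 labelled in opposite dyes, and by its title it concerned how transcription across the genome relies on the functional parts of TAF1, a TFIID subunit. There were 7 groups of 2 arrays: FHT-WT1 (strain yjdi353), whose code carries WT, DT1 (yjdi355), TF1 (yjdi357), HT4 (yjdi359), PB1 (yjdi361), a strain labelled null (yjdi381), and a homotypic pair with yjdi363 in both dyes. Every culture, the reference included, was grown in leucine-free medium with 3% raffinose to an optical density of 0.7, received 2% galactose for 30 min at 25 °C to induce the TAF1 constructs, and was then moved to 37 °C for 45 min. The genotypes, what the codes stand for, and whether a group's arrays stand for different cultures are not given in the sources used here. The p-values therefore cover array-to-array spread alone, and this spread may be technical.

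Each value is a log2 ratio of strain to reference, centred on the median of that array's named genes with a value on all arrays. Array 1 had the strain in Cy5 and array 2 in Cy3. TAF1 itself lay at -3.52 and -3.46 on the null strain arrays and between -1.06 and -0.06 on the other strain arrays. Strain over reference was assumed as the direction because of that low value, so every "lower" and "higher" rests on this choice. The arrays of FHT-WT1 correlated with r = -0.0059 across 5535 genes, which are not independent replicates, those of the homotypic pair with -0.23 and those of the other strains with 0.51 to 0.66. The spread of all genes (median absolute deviation) was 0.15 and 0.21 on the FHT-WT1 arrays, 0.13 and 0.16 on the homotypic arrays and 0.26 to 0.38 on the other strain arrays. How homotypic array 2 was turned is not stated, and it was used as deposited.

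The THI5 family lay lower on the arrays of the 5 strains than in FHT-WT1 at 3 of its 4 copies without overlap, a pattern that 8.11% of all 5535 genes had. THI11, the copy on chromosome X, lay at -0.13 and -0.24 on the FHT-WT1 arrays, at 0.01 and -0.09 on the homotypic arrays, at -0.76 and -0.96 in DT1, at -0.87 and -0.79 in TF1, at -0.72 and -0.86 in HT4, at -0.79 and -1.08 in PB1 and at -0.70 and -0.70 in the null strain. The groups did not overlap, and PB1 array 2 was the lowest. The difference from FHT-WT1 was -0.52 ± 0.11 (SE, limma, 2 arrays against 2) in the null strain, a ratio of 1.43-fold, and ran from -0.60 in HT4 to -0.75 ± 0.11 (1.68-fold) in PB1.

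THI5, on chromosome VI, lay at 0.00 and -0.18 in FHT-WT1, at 0.09 and -0.13 in the homotypic pair, at -0.43 and -0.60 in DT1, at -0.39 and -0.53 in TF1, at -0.52 and -0.52 in HT4, at -0.59 and -0.73 in PB1 and at -0.45 and -0.49 in the null strain. THI12, on chromosome XIV, lay at 0.02 and -0.36 in FHT-WT1, at -0.09 and -0.18 in the homotypic pair, at -0.45 and -0.88 in DT1, at -0.65 and -0.70 in TF1, at -0.48 and -0.82 in HT4, at -0.66 and -1.14 in PB1 and at -0.59 and -0.70 in the null strain. Both copies were lower on all 10 strain arrays than on either FHT-WT1 array, but at THI12 the gap between DT1 array 1 and FHT-WT1 array 2 was small. The differences from FHT-WT1 were -0.37 to -0.57 at THI5 and -0.47 to -0.73 at THI12, with PB1 the lowest at both.

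THI13, on chromosome IV, lay at -0.09 and -0.05 in FHT-WT1, at 0.12 and -0.14 in the homotypic pair, at -0.70 and -0.71 in DT1, at -0.94 and -0.68 in TF1, at -0.60 and -0.01 in HT4, at -0.61 and -0.51 in PB1 and at -0.89 and -0.33 in the null strain. Of the 10 strain arrays 9 were below both FHT-WT1 arrays, and HT4 array 2 was above them. The difference from FHT-WT1 was -0.23 ± 0.18 in HT4 and -0.49 to -0.74 in the other strains. On HT4 array 2 the 4 copies spanned 0.85, with THI11 lowest and THI13 highest, while over the 12 strain and FHT-WT1 arrays the median span was 0.35. Transcripts of near-identical copies can bind each other's PCR products, so the level of a single copy cannot be read from its feature alone.

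**Figure D1:**
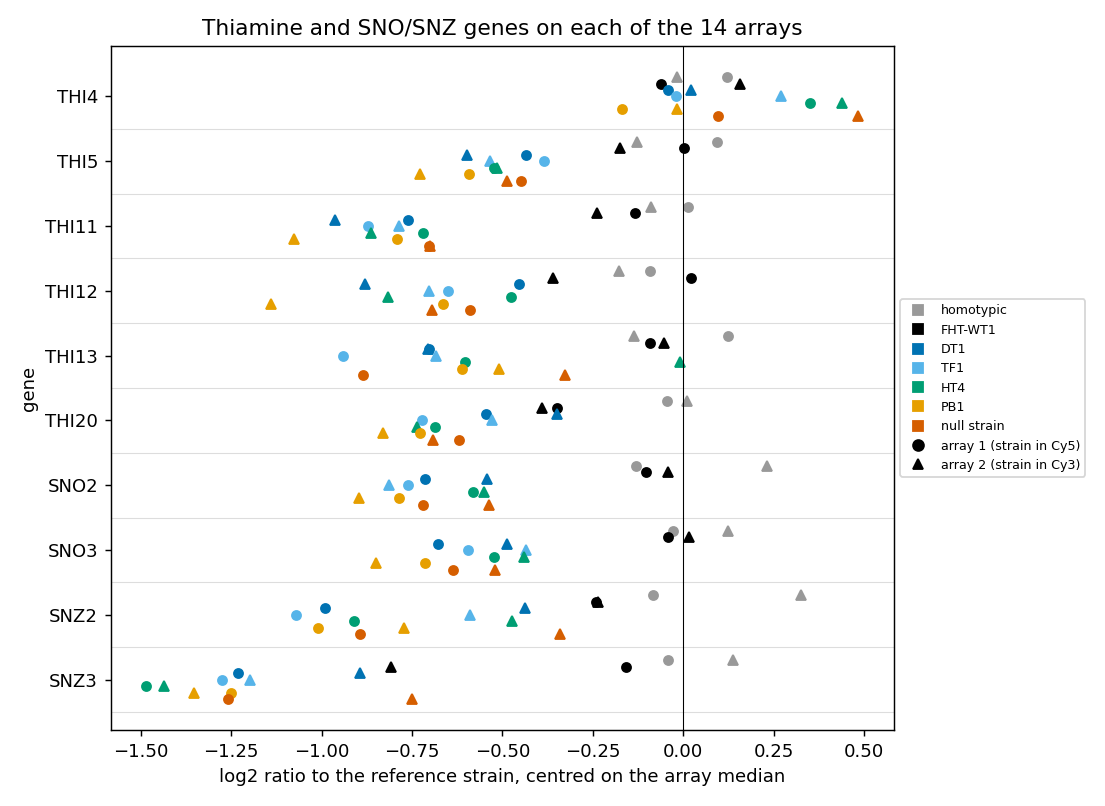
Centred log2 ratio of each of the 10 genes on each of the 14 arrays, with 1 point per array, colours for the groups, circles for array 1 and triangles for array 2. The strain arrays of THI11 sit between -1.08 and -0.70, left of the FHT-WT1 arrays at -0.13 and -0.24, whereas THI4 is spread on both sides of 0.

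The vitamin B6 genes SNO2 and SNO3 lay closer to each other than SNZ2 and SNZ3, whose median gap over the 12 arrays was 0.43. As at the THI5 family, transcripts of such copies can bind each other's PCR products, so the agreement does not show separate genes changing alike. SNO3, on chromosome VI, lay at -0.04 and 0.01 in FHT-WT1, at -0.03 and 0.12 in the homotypic pair, at -0.68 and -0.49 in DT1, at -0.60 and -0.43 in TF1, at -0.52 and -0.44 in HT4, at -0.72 and -0.85 in PB1 and at -0.64 and -0.52 in the null strain. SNO2, on chromosome XIV, lay at -0.10 and -0.04 in FHT-WT1, at -0.13 and 0.23 in the homotypic pair, at -0.71 and -0.54 in DT1, at -0.76 and -0.81 in TF1, at -0.58 and -0.55 in HT4, at -0.78 and -0.90 in PB1 and at -0.72 and -0.54 in the null strain. No strain array of either gene overlapped the FHT-WT1 or homotypic arrays, and the median gap between the copies was 0.06 over the 12 arrays. The difference from FHT-WT1 was -0.57 ± 0.11 (1.48-fold) in the null strain and -0.77 ± 0.11 (1.70-fold) in PB1 at SNO3, and at SNO2 it ran from -0.49 in HT4 to -0.77 in PB1.

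The differences of SNZ2 and SNZ3 from FHT-WT1 were unlike between arrays 1 and arrays 2. These were of opposite dye orientation and carry different title numbers, so that dye and array cannot be told apart. At SNZ3 the FHT-WT1 arrays were 0.65 apart, while the means over the 5 strains were -1.30 on arrays 1 and -1.13 on arrays 2. SNZ3, on chromosome VI, lay at -0.16 and -0.81 in FHT-WT1, at -0.04 and 0.14 in the homotypic pair, at -1.23 and -0.89 in DT1, at -1.28 and -1.20 in TF1, at -1.49 and -1.43 in HT4, at -1.25 and -1.35 in PB1 and at -1.26 and -0.75 in the null strain. It had the lowest levels of the set, but FHT-WT1 array 2 lay below null strain array 2. Between arrays 1 the differences from FHT-WT1 were -1.07 to -1.33, and between arrays 2 they were -0.63 to 0.06, so the fitted differences of -0.52 in the null strain to -0.98 ± 0.21 in HT4 average unlike values. Without FHT-WT1 array 1 they were -0.56 to -0.11, and without FHT-WT1 array 2 -1.39 to -0.93.

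SNZ2, on chromosome XIV, lay at -0.24 on both FHT-WT1 arrays, at -0.08 and 0.32 in the homotypic pair, at -0.99 and -0.44 in DT1, at -1.07 and -0.59 in TF1, at -0.91 and -0.47 in HT4, at -1.01 and -0.77 in PB1 and at -0.89 and -0.34 in the null strain. All strain arrays were below FHT-WT1, with means over the 5 strains of -0.97 on arrays 1 and -0.52 on arrays 2. Its differences from FHT-WT1 were -0.65 to -0.83 between arrays 1 and -0.10 to -0.54 between arrays 2. Between arrays 2 the null strain was closest to FHT-WT1 and PB1 farthest.

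THI20 was already below the reference in FHT-WT1. It lay at -0.35 and -0.39 in FHT-WT1, at -0.05 and 0.01 in the homotypic pair, at -0.55 and -0.35 in DT1, at -0.72 and -0.53 in TF1, at -0.69 and -0.74 in HT4, at -0.73 and -0.83 in PB1 and at -0.62 and -0.69 in the null strain. DT1 array 2 overlapped FHT-WT1, and the other 9 strain arrays did not. The differences from FHT-WT1 were smaller than at the THI5 family, at -0.08 ± 0.11 in DT1 and -0.26 to -0.41 in the other strains. THI20 has relatives in THI21 and THI22, whose differences from FHT-WT1 were -0.19 to 0.14 and -0.30 to -0.08.

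THI4, which makes the thiazole part and lies on chromosome VII, did not share the lower levels. It lay at -0.06 and 0.16 in FHT-WT1, at 0.12 and -0.02 in the homotypic pair, at -0.04 and 0.02 in DT1, at -0.02 and 0.27 in TF1, at 0.35 and 0.44 in HT4, at -0.17 and -0.02 in PB1 and at 0.10 and 0.48 in the null strain. Only PB1 array 1 was below both FHT-WT1 arrays, and both HT4 arrays were above them. The differences from FHT-WT1 were 0.35 ± 0.13 in HT4, 0.24 ± 0.13 in the null strain, 0.08 in TF1, -0.06 in DT1 and -0.14 in PB1. Over the 12 arrays of the strains and FHT-WT1, THI4 correlated with the other 9 genes at r of -0.19 to 0.38 (median -0.03). The 36 pairs among those 9 had a median r of 0.71, from 0.22 to 0.93, where the points share arrays and dye orientation and the gene copies share transcripts.

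In all, 6 of the 10 genes (THI5, THI11, THI12, SNO2, SNO3 and SNZ2) had no overlap between the strain arrays and FHT-WT1, against 8.11% of all genes with the same pattern and 4.52% with the opposite one. Nothing is read from this share, because the set was chosen on the same difference. The median of the 10 genes was -0.10 and -0.21 on the FHT-WT1 arrays, -0.04 and 0.00 on the homotypic arrays and between -0.84 and -0.53 on the strain arrays. The 5 differences from FHT-WT1 share the FHT-WT1 arrays and are not independent of each other. Their medians over the 10 genes were -0.49 in the null strain, -0.53 in DT1, -0.55 in TF1, -0.46 in HT4 and -0.69 in PB1, beside medians of all genes of -0.01 in each. The spread of all genes was lower on the FHT-WT1 arrays than on the strain arrays, as given above, and its part in these differences was not tested. In bulk RNA, fewer cells that express a gene and less RNA per cell cannot be told apart.

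**Figure D2:**
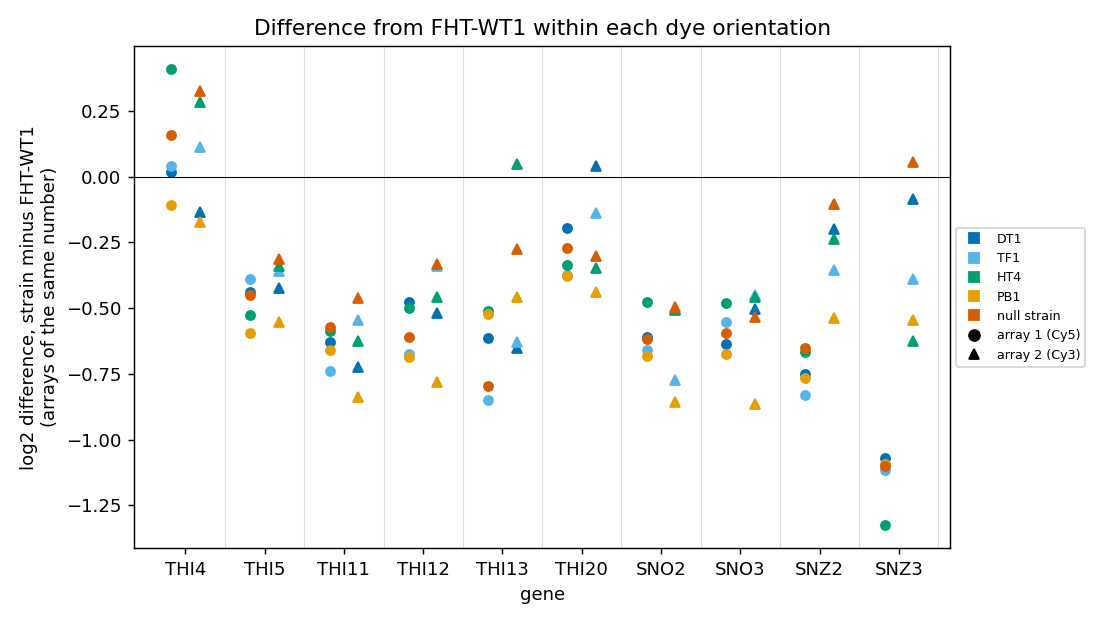
Log2 difference between each strain and FHT-WT1, taken between arrays 1 (circles) and between arrays 2 (triangles), for each gene, with colours for the strains. At SNZ3 the arrays 1 give -1.33 to -1.07 and the arrays 2 -0.63 to 0.06, while at THI11 the orientations overlap.

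The construct strains were compared with the null strain by a test, since the rule did not use this contrast itself. It did use the arrays of all 5 strains, and genes low in each of them were favoured, so closeness to the null strain is partly fixed by the choice. Relative to the null strain, TAF1 RNA was up by 2.95 ± 0.21 (SE, log2) in DT1, 3.00 in TF1, 2.82 in HT4 and 2.95 in PB1 (limma, Benjamini-Hochberg adjusted p = 2.75e-05, 2.22e-05, 4.46e-05 and 2.7e-05). None of the 10 thiamine and SNO/SNZ genes was called in any of these 4 comparisons by limma, whose smallest adjusted p over the 40 values was 0.178. At an unadjusted p under 0.05 there were 3 values: THI4 in DT1 and in PB1, and SNZ3 in HT4. Of all genes tested, 0.0723% were called in DT1, 0.0542% in TF1, 0.506% in HT4 and 1.17% in PB1, so a count of 0 in 10 is near the background.

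The differences of the 9 genes other than THI4 from the null strain ran from -0.46 to 0.30, and their 95% intervals reached from -0.91 to 0.70. At THI11 the difference was -0.16 in DT1 (95% interval -0.41 to 0.09), -0.13 in TF1 (-0.37 to 0.12), -0.09 in HT4 (-0.33 to 0.16) and -0.23 in PB1 (-0.48 to 0.01). At SNO3 it was 0.00 in DT1 (-0.24 to 0.23), 0.06 in TF1 (-0.17 to 0.30), 0.10 in HT4 (-0.14 to 0.33) and -0.20 in PB1 (-0.44 to 0.03). THI11 and SNO3 were the genes chosen for low values in both arms, so nothing is read from their closeness, and the intervals leave room for differences of -0.48 to 0.33. At THI13 in HT4 the interval was -0.09 to 0.70, and at SNZ3 in HT4 -0.91 to 0.00.

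THI4 was the gene with the lowest p in PB1, at -0.38 ± 0.13 against the null strain (95% interval -0.66 to -0.11; limma, adjusted p = 0.178). In DT1 it was -0.30 ± 0.13 (limma, adjusted p = 0.455). The null strain arrays of THI4 were apart, at 0.10 and 0.48, and neither difference passed the threshold.

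**Figure D3:**
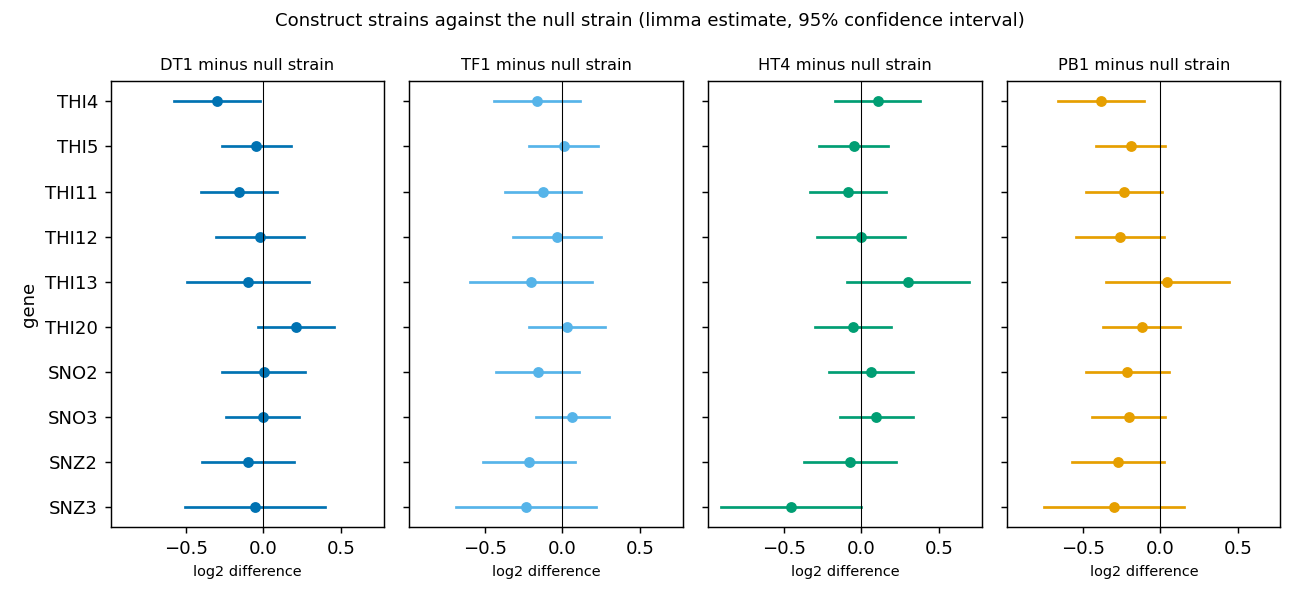
Log2 difference between each of the 4 construct strains and the null strain for each gene, as limma estimates (points) with 95% confidence intervals (lines). All 40 adjusted p-values were 0.178 or higher, and the intervals that leave out 0 are those of THI4 in DT1 and PB1 and of SNZ3 in HT4.

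The construct strains were also compared with each other. Between DT1 and TF1 the differences of the 10 genes ran from -0.14 to 0.18, with intervals no wider than ± 0.45, and none was called by limma (0 at an unadjusted p under 0.05, and 0% of all genes called, with 115 of all genes at that unadjusted p). HT4 differed from the mean of DT1 and TF1 by 0.45 ± 0.16 at THI13 and by 0.34 ± 0.11 at THI4 (limma, adjusted p = 0.349 and 0.348), and 0.0361% of all genes were called. PB1 lay below the mean of DT1, TF1 and HT4 at 9 of the 10 genes, beside 49.8% of all genes. The median was -0.17 over the 10 genes, beside 0.00 over all genes. The largest differences were at THI4 (-0.26 ± 0.10), SNO3 (-0.26 ± 0.09) and THI12 (-0.24 ± 0.11), with limma adjusted p = 0.207, 0.156 and 0.257. None of the 10 was called, against 1.08% of all genes. Near-identical copies can share transcripts, and the rule used the PB1 arrays, so nothing is read from the 9 of 10.

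FHT-WT1 was compared with the homotypic pair to see how far the control lay from the reference. All 10 genes were below the homotypic mean, with a median difference of -0.10, beside 48.1% of all genes below 0. As given above, how the homotypic arrays were turned is not fully stated. This count and the differences below therefore hold only for the orientation used. At SNO2, for example, the homotypic arrays lay on either side of 0, at -0.13 and 0.23, so their mean depends on it. FHT-WT1 differed by -0.35 ± 0.11 at THI20, -0.36 ± 0.14 at SNZ2 and -0.53 ± 0.21 at SNZ3 (limma, adjusted p = 0.933 for each). None was called, and neither was any of the other genes (0% of 5535 by limma, 275 at an unadjusted p under 0.05). The FHT-WT1 arrays also served the rule, so this difference is not independent of it.

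The other genes of the thiamine pathway were taken from a list of 15, all measured. None of them was called in any of the 13 comparisons by limma, and 16 of the 195 values had an unadjusted p under 0.05. The nearest to the THI5 family was PHO3, an acid phosphatase repressed by thiamine, which releases thiamine from its phosphates. PHO3 lay at -0.28 and -0.36 in FHT-WT1, at 0.05 and 0.34 in the homotypic pair and between -1.10 and -0.42 on the strain arrays, with a median of -0.72. Its strain arrays were all below FHT-WT1, and its differences from it were -0.35 to -0.51 (limma, adjusted p from 0.115 to 0.242). PDC2, a regulator needed for expression of thiamine genes, lay 0.20 to 0.29 above FHT-WT1 (limma, adjusted p from 0.108 to 0.23). The thiamine transporter relative THI72 lay at -0.14 to -0.31 and the mitochondrial thiamine diphosphate carrier TPC1 at -0.14 to -0.25, also not called. Over the list the medians of the differences from FHT-WT1 were -0.03 to -0.11, close to those of all genes.

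Of 6 further vitamin B6 genes, SNZ1 was lower in PB1 than in FHT-WT1 and the other constructs, but was not called against the null strain. SNZ1 and SNO1, on chromosome XIII, are the relatives of the SNZ and SNO genes outside the subtelomeric clusters and are known for expression in stationary phase. SNZ1 lay at 0.25 and 0.51 in FHT-WT1, at 0.14 and 0.21 in DT1, at 0.23 and 0.13 in TF1, at 0.53 and 0.14 in HT4, at -1.25 and -0.68 in PB1, at -0.09 and -0.44 in the null strain and at 0.05 and 0.18 in the homotypic pair. PB1 was the lowest on both arrays, and the null strain was the next lowest. The null strain lay at -0.64 against FHT-WT1, which limma did not call. SNZ1 was lower in PB1 than the mean of DT1, TF1 and HT4 by a log2 difference of -1.19 ± 0.16 (2.29-fold; limma, adjusted p = 0.00441) and than FHT-WT1 by -1.35 ± 0.19 (limma, adjusted p = 0.00304), where 7.35% of all genes were called. The first call was lost without PB1 array 1 (limma, -0.87, adjusted p = 0.0848) and kept under the other 14 alternatives, with limma adjusted p from 0.000691 to 0.0239. The second was kept in all 11 alternatives, with adjusted p from 0.000416 to 0.023.

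SNO1, which shares its promoter region with SNZ1, lay at -0.75 and -0.09 in PB1 and was not called there (-0.45 ± 0.16 against FHT-WT1, limma, adjusted p = 0.106). It lay at 0.06 and 0.01 in FHT-WT1 and at -0.41 and -0.42 in the null strain. All 10 strain arrays of SNO1 were below both FHT-WT1 arrays, as for 8.11% of all genes, and 9 were also below the homotypic arrays. SNO1 was not called in any comparison. TPN1, a pyridoxine transporter, fell in PB1 against the null strain by 0.71 on the log2 scale, and 5 of 11 alternatives did not keep the call (limma, adjusted p = 0.0127, range 0.0117 to 0.317). TPN1 lay at 0.53 and 0.40 in the null strain, at -0.32 and -0.17 in PB1 and at 0.18 and -0.05 in FHT-WT1. Neither the null strain (0.40 ± 0.11, limma, adjusted p = 0.0599) nor PB1 (-0.31 ± 0.11, limma, adjusted p = 0.116) was called against FHT-WT1. Without PB1 array 1 its adjusted p in PB1 against the null strain was 0.12, and without null strain array 2 it was 0.0573 (limma). PDX3, BUD16 and BUD17 were not called in any comparison.

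Among 11 enzymes that use thiamine diphosphate, none was called by limma in the null strain or DT1 against FHT-WT1 (2 and 4 at an unadjusted p under 0.05), where 6.02% and 0.903% of all genes were called. In TF1 1 was higher, against 1.1% of all genes called higher and 3.72% in either direction. In HT4 3 were higher, against 4.9% and 11.7%, and in PB1 3 were lower, against 4.64% lower and 7.35% in either direction. The pyruvate decarboxylase genes PDC1 and PDC5 and the transketolase gene TKL2 were higher in HT4, by 0.80 ± 0.20, 0.76 ± 0.17 and 1.04 ± 0.22 (limma, adjusted p = 0.0222, 0.0157 and 0.0137). PDC5 was also higher in TF1 (0.74 ± 0.17, limma, adjusted p = 0.0389). PDC6, a minor pyruvate decarboxylase gene, was not called (0.22 to 0.81). The PDC genes are close copies whose transcripts may share PCR products.

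In PB1 the lower genes were the pyruvate dehydrogenase genes PDA1 (-0.45 ± 0.12) and PDB1 (-0.61 ± 0.15) and ARO10, a decarboxylase of amino acid breakdown (-0.85 ± 0.20), with limma adjusted p = 0.0397, 0.0358 and 0.0283. None of these calls held in all 11 alternatives: TKL2 lost it in 4, PDC1, HT4's PDC5 and ARO10 in 6, PDB1 in 7, PDA1 in 9 and TF1's PDC5 in 10. PDC1, PDC5 and ARO10 lost it without either FHT-WT1 array, TKL2 without FHT-WT1 array 2 or HT4 array 1, and PDA1 and PDB1 without FHT-WT1 array 1 or either PB1 array. PDC1 and PDC5 in HT4 also lost it without HT4 array 1 (PDC5 0.47), PDC5 in TF1 without either TF1 array, PDA1 without FHT-WT1 array 2, and ARO10 without PB1 array 1 (-0.40). PDA1 was at -0.10 after each array was divided by its spread.

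The chromosomal neighbours of the genes are given next. Transcripts of near-identical copies can bind each other's PCR products, so the value of a copy cannot be assigned to its own locus. In the reference annotation, SNO3, SNZ3 and THI5 lie side by side near the end of chromosome VI, between DDI3 and AAD6, and SNO2, SNZ2 and THI12 lie in the same order on chromosome XIV, between DDI2 and AAD14. THI11 lies beside AAD10, and THI13 beside AAD4. The AAD genes encode putative aryl-alcohol dehydrogenases, and DDI2 and DDI3 are near-identical genes induced by DNA damage.

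AAD6, next to THI5, lay at -0.15 and 0.07 in FHT-WT1 and between -0.21 and 0.12 in the strains, with differences of -0.07 to 0.16. AAD14, next to THI12, lay at 0.11 and 0.13 in FHT-WT1 and between -0.24 and 0.10 in the strains, with differences of -0.07 to -0.26, smaller in each strain than those of THI12. All 10 strain arrays of AAD14 were below both FHT-WT1 arrays, as for 8.11% of all genes, and 2 were also below both homotypic arrays. AAD10, next to THI11, lay 0.04 to 0.37 above FHT-WT1 in the strains, and AAD4, next to THI13, differed by -0.24 to -0.01. The immediate neighbours on the AAD side thus lay within 0.37 of FHT-WT1 in every strain, but so did THI13 in HT4 (-0.23). Whether the neighbours differed from the cluster genes was not tested.

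On the other side, DDI3 lay at 0.04 and 0.08 in FHT-WT1, at 0.36 and 0.28 in HT4 and at -0.48 and -0.49 in the null strain. Against FHT-WT1 it was lower in the null strain (-0.55 ± 0.10, limma, adjusted p = 0.0202), a call that 6 of 11 alternatives did not keep, among them those without either FHT-WT1 array or null strain array 2. It was higher in HT4 than in the null strain by 0.80 ± 0.10 (limma, adjusted p = 0.00578), a call lost without HT4 array 1 or null strain array 2 (limma, adjusted p = 0.0557 and 0.0566) and in 2 other alternatives. DDI2 was not called, with differences from FHT-WT1 of -0.37 to 0.09. Its arrays were far apart, at -0.22 and 0.35 in FHT-WT1 and at -0.58 and 0.05 in the null strain. Transcripts of these near-identical genes may share PCR products, so the level of DDI3 or DDI2 cannot be read from its feature alone.

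AAD3 is no neighbour of these genes but was on the list of 9 such genes, of which 8 were measured. It was lower than FHT-WT1 in the null strain (-0.53), DT1 (-0.55), HT4 (-0.41) and PB1 (-0.61), with limma adjusted p = 0.0274, 0.0397, 0.0324 and 0.00868. AAD3 lay at 0.29 and 0.37 in FHT-WT1, at -0.17 and 0.10 in the homotypic pair and between -0.32 and 0.11 on the strain arrays. All 10 strain arrays were below FHT-WT1, but only 5 were also below the homotypic arrays, and FHT-WT1 itself lay 0.36 ± 0.11 above the homotypic pair (limma, adjusted p = 0.933). Of 11 alternatives each, 6, 9, 8 and 5 did not keep these calls. In the null strain, DT1 and HT4 the calls were lost without either FHT-WT1 array, as well as without null strain array 2, either DT1 array and either HT4 array. In PB1 the call was lost without FHT-WT1 array 1 or PB1 array 2.

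**Figure D4:**
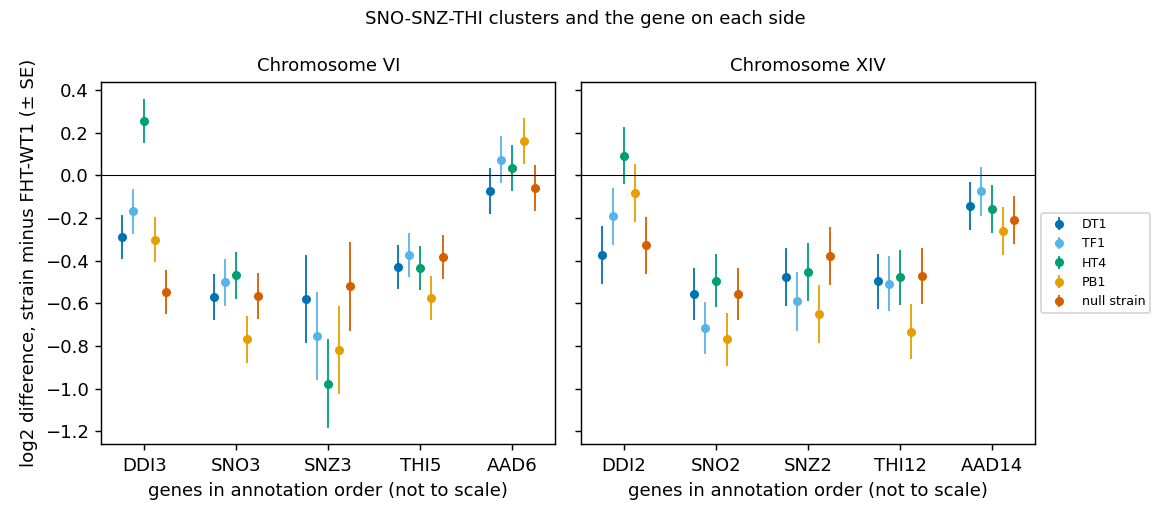
Log2 difference ± SE from FHT-WT1 in each strain for the genes of the chromosome VI and XIV clusters and the gene on each side, in annotation order and not to scale. The SNO, SNZ and THI genes lie between -0.98 and -0.37 in every strain. AAD6 lies between -0.07 and 0.16 and AAD14 between -0.26 and -0.07. On the other side, DDI3 lies between -0.55 (null strain) and 0.26 (HT4), and DDI2 between -0.37 and 0.09. Near-identical copies can share transcripts, so a value cannot be assigned to its locus.

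The genes most like the set were found from the correlation with the mean of the 10 genes over the 12 arrays of the strains and FHT-WT1, which share dye orientation and reference. They were BNA1 (r = 0.98), an enzyme of NAD synthesis from tryptophan, URA5 (0.95) of pyrimidine nucleotide synthesis, FUN14 (0.94), YHI9 (0.92) and the tropomyosin gene TPM1 (0.91). BNA1 lay at -0.28 and -0.27 in FHT-WT1, at -0.35 and 0.20 in the homotypic pair and between -1.53 and -0.98 on the strain arrays. URA5 lay at -0.12 on both FHT-WT1 arrays and between -0.61 and -0.33 on the strain arrays. In all 5 genes the strain arrays lay below both FHT-WT1 arrays, as 8.11% of all genes did, and since likeness to the set chose them nothing is read from this.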

How the data were processed

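The deposited values are log2 ratios of 2 channels for 7056 features on 14 arrays. Per the series text, the authors applied mode normalisation in R to the dye swaps and a correction from B. subtilis spikes. Direction and centring are not stated, and signal and background were not analysed here. Of 5579 named features, 5574 matched the RefSeq annotation (R64, for names and gene order only). Features of 1 gene were averaged, giving 5548 genes, of which 5535 had a value on all arrays.

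Each array was centred on its median. One limma 3.58.1 model in R 4.3.3 (lmFit, eBayes) held 7 groups and a term for array number (dye orientation), with two-sided tests and Benjamini-Hochberg adjustment over 5535 genes at 0.05. It was tested on simulated data. Comparisons were the 5 strains against FHT-WT1, 4 constructs against the null strain, 3 among constructs, and FHT-WT1 against the homotypic pair. Of each list, genes called in a comparison without FHT-WT1 and up to 4 others with the largest mean difference from FHT-WT1 are named, and AAD4, AAD6, PDA1, PDB1, THI21 and THI22 were added after their values were seen. Members, lists and tests were chosen with earlier results of these data known.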

Additional observations from a re-analysis of the deposited data

Results flagged for a closer look

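None of the 10 thiamine and SNO/SNZ genes of the set was called by limma in the 8 comparisons in which they were tested. Intervals of their differences were as wide as ± 0.45, so the lack of a call does not show equal levels. Differences of these genes between the strains and FHT-WT1 were described without a test. Among the pathway and neighbour genes, 6 differences passed the threshold in these 8 comparisons (limma, Benjamini-Hochberg adjusted over 5535 genes). Their calls against FHT-WT1 are given above and are not counted here. The lists held 15, 6, 11 and 8 measured genes, with THI3 shared between lists. Of all genes, 1.08% were called in PB1 against the other constructs. Against the null strain, 1.17% were called in PB1 and 0.506% in HT4. ILV2 is counted in both PB1 comparisons, which share the PB1 arrays. In PB1 against the mean of DT1, TF1 and HT4, SNZ1 differed by -1.19 (adjusted p = 0.00441), ARO10 by -0.80 (adjusted p = 0.0404) and the acetolactate synthase gene ILV2 by -0.49 (adjusted p = 0.0258). The ARO10 call was lost in 12 of 15 alternatives and the ILV2 call in 9, and ARO10 was -0.35 without PB1 array 1. In PB1 against the null strain, TPN1 differed by -0.71 (adjusted p = 0.0127) and ILV2 by -0.52 (adjusted p = 0.0454), the latter call lost in 8 of 11 alternatives. In HT4 against the null strain, DDI3 differed by 0.80 (adjusted p = 0.00578).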

How the results depend on the processing

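None of the 10 genes was called in the 8 tested comparisons under any alternative that could be fitted. Their values turned sign in 37 of 550 cases under other settings and in 50 of 380 without 1 array. Differences from FHT-WT1 kept their sign at THI5, THI11, THI12, SNO2, SNO3, SNZ2 and SNZ3 in all 55 values each, and turned 5 times at THI20 and once each at THI4 and THI13. The 6 genes without overlap with FHT-WT1 (8.11% of all genes) were 6 as deposited (3.02%), 4 when scaled by spread (5.76%), 6 and 7 when FHT-WT1 array 1 or 2 was left out (17.1% and 16.8%) and 6 to 7 without 1 other array (8.26% to 9.21%), alternatives chosen after seeing the data.

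Counts of all called genes moved more. As deposited they were 41, 9, 10 and 26 for DT1, TF1, HT4 and PB1 against the null strain (4, 3, 28 and 65 when centred), 6 for DT1 against TF1 (0), 0 for HT4 against DT1 and TF1 (2), 117 for PB1 against the other constructs (60), and 38, 29, 341 and 107 for the null strain, TF1, HT4 and PB1 against FHT-WT1 (333, 206, 648 and 407; DT1 50). Scaled by spread they were 8 for FHT-WT1 against the homotypic pair (0), 2 and 3 for HT4 and PB1 against the null strain, 0 for HT4 and 9 for PB1 against the other constructs, and 1, 3, 1, 23 and 14 for the null strain, DT1, TF1, HT4 and PB1 against FHT-WT1. With no term for array number they were 2, 4 and 6 for DT1, HT4 and PB1 against the null strain, 0 for HT4 and 6 for PB1 against the other constructs, and 3, 4, 6, 98 and 55 for the same 5 strains against FHT-WT1. With homotypic array 2 reversed they were 10 and 36 for HT4 and PB1 against the null strain, 1 for HT4 and 29 for PB1 against the other constructs, and 168, 26, 94 and 265 for the null strain, DT1, TF1 and PB1 against FHT-WT1. Without the homotypic arrays HT4 against the null strain gave 14 and DT1 against FHT-WT1 33, and with the title number as a random block (correlation 0.271) DT1 against FHT-WT1 gave 110. The cause was not tested.

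Without 1 array the counts ranged from 1 to 709 for the null strain, 1 to 42 for DT1, 3 to 71 for TF1, 159 to 363 for HT4 and 103 to 236 for PB1 against FHT-WT1, from 2 to 146, 2 to 53, 2 to 62 and 15 to 82 for DT1, TF1, HT4 and PB1 against the null strain, from 0 to 8 for DT1 against TF1, 0 to 9 for HT4 and 11 to 136 for PB1 against the other constructs, and 0 to 8 for FHT-WT1 against the homotypic pair. Arrays were matched across groups by dye orientation, through the term for array number. The labels give no replicate numbers, so no other pairing was made. The shared numbers in the array titles were used as the random block above. With 2 arrays a group, the number of arrays limits the precision.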

Other observations

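Other genes that lie next to members in the annotation were measured outside the lists, and they are named here after their values were seen. PSH1, next to THI20, lay at 0.06 and -0.05 in FHT-WT1 and between -0.39 and -0.05 on the strain arrays. GPM3, on the other side of THI20, lay between -0.08 and 0.24 on the strain arrays. ENP2, next to THI4 and needed for ribosome biogenesis, lay at -0.34 and -0.21 in FHT-WT1 and between -0.73 and -0.11 on the strain arrays. SKN1, on the other side of THI4, lay at -0.02 and -0.19 in FHT-WT1 and between -0.15 and 0.69 on the strain arrays. The hexose transporter relatives HXT15 and HXT16, next to THI13 and THI11, lay between -0.34 and 0.36 and between -0.29 and 0.32 on the strain arrays.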
